A study of Homo sapiens with 4 samples.

Results

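The HOX genes are 38 members of clusters A, B, C and D, taken from a table of 60234 genes by their symbols: HOX, the letter of the cluster and the number of the paralog group. Clusters A and B gave 10 members each and clusters C and D gave 9 each. The rule uses no measured value, although the set was picked with earlier results of these data known. Cluster A lies on chromosome 7 and B on 17, both read on the minus strand, and C lies on chromosome 12 and D on 2, both on the plus strand. Each library is the only one of its condition, so that no test between conditions was possible and no p-value is given.

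HOX genes encode homeodomain transcription factors that give cells of the embryo their position along the head-to-tail axis. Within a cluster the genes lie in the order of their paralog numbers, and low numbers are used earlier and nearer the head than high numbers. Retinoic acid (RA), a form of vitamin A that binds nuclear receptors, is a classical inducer of the low-numbered genes, in the hindbrain and also in the second heart field, whose cells contribute to the atria. PBX and MEIS proteins bind DNA together with HOX proteins, and CDX proteins are known activators of the trunk HOX genes.

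The samples came from the NKX2.5:GFP line, a human embryonic stem cell line in which GFP is made from the NKX2-5 locus, so that green cells have entered the cardiac lineage and the GFP-negative cells are whatever else grew in the dish. The cultures were differentiated toward heart cells and received either 1 µM RA or, in the control (CTR), the solvent DMSO between days 4 and 7. On day 31 each culture was split by its fluorescence, which gave 4 libraries from 1 line. The RA treatment therefore ended long before the RNA was taken, and nothing here measures the days in between.

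The counts summed to between 26222787 and 28643091 reads in 3 libraries and to 4371101 in CTR GFP-negative cells. Values are given as CPM, read counts scaled to a common library size with TMM factors. Intervals are exact 95% intervals that cover counting error only, since each condition had 1 library. Amplified reads are not independent molecules, so that these intervals may be too narrow even for that error. A total of 3 reads was taken as the limit that a count of 0 allows, which corresponds to 0.105 to 0.117 CPM in the deep libraries and 0.639 CPM in CTR GFP-negative cells. Folds given as at least set a count of 0 at this limit and take the other count as it stands. Counting intervals can reach below such a fold. A member with 4 or more reads is called detected. The sort separated the cells by label: NKX2-5 stood at 463 and 593 CPM in the RA and CTR libraries of GFP-positive cells, against 9.74 and 14.5 CPM in their GFP-negative counterparts, and all 13 cardiomyocyte markers were at least 2-fold higher in GFP-positive cells under both treatments.

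The promoters of HOXA2 and HOXB1 are printed because these genes are the low-numbered members of clusters A and B in which the search found a PBX-HOX site, TGATNNAT on either strand, the sequence that PBX and HOX proteins bind as a pair. Both genes lie on the minus strand, and each line shows the stretch upstream of the RefSeq start, read 5′ to 3′ in the direction of the gene, with the site in capitals. The sequences are those of RefSeq's GRCh38.p14 table, and each matched 1 place in GRCh37: chr7:27142306-27142552 for HOXA2, after 3 bases annotated as exon were left out, and chr17:46608374-46608623 for HOXB1. The site lies at -114 to -107 in HOXA2 and at -125 to -118 in HOXB1, counted from the RefSeq start.
HOXA2: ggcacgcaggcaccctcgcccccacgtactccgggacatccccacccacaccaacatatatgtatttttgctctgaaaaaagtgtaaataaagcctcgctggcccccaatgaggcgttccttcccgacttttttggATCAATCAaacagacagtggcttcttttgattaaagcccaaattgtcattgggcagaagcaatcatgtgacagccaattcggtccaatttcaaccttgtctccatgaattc
HOXB1: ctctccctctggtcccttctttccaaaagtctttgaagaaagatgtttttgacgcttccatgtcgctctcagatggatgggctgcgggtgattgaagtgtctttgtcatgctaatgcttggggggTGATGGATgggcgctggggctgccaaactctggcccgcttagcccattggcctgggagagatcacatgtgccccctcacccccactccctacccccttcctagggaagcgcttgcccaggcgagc

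RefSeq entries were matched for 20 of the 38 members, with 27 promoters in all, of which those of HOXC4 and HOXC5 are the same window. A match in it was counted for both genes, which is the case for the second half-site, the CDX site and CCAAT in the numbers that follow. Not matched were HOXA5, HOXB2 to HOXB9, HOXB13, HOXC6, HOXC8 to HOXC13 and HOXD9. The PBX-HOX site was found in 3 of the 27 (HOXD11 was the other) and in 6.47% of all 35116 promoters of the same length. AGGTCA, a half-site of the RA receptors, was found in none of the 27 and in 12.1% of all promoters, and AGTTCA, the other half-site searched, in 5 of the 27 and in 8.80% of all. A pair of half-sites in direct repeat with 5 bases between them, or with 2, was found in no member's promoter. Over all promoters these pairs were found in 0.014% and 0.006%, so that none among 27 says little. The CDX site TTTATNG was found in 7 of the 27 promoters and in 8.93% of all. CCAAT was found in 18 of the 27 promoters and in 32.0% of all. The table's promoters of HOXA2 and HOXB1 each hold it. These matches describe letters in the windows searched and were not tied to binding.

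Reads of 3 neighbouring genes of cluster B made up most of the HOX signal in every library. HOXB2, HOXB3 and HOXB4, which pattern the hindbrain and the neighbouring mesoderm, were the only members detected in all 4 libraries. They gave 64.5% of the members' reads in RA GFP-negative cells, against 93.6% in RA GFP-positive, 98.1% in CTR GFP-positive and 94.7% in CTR GFP-negative cells. The members outside these 3 genes summed to 73.6 CPM in RA GFP-negative cells, against 8.67 CPM in RA GFP-positive, 2.23 CPM in CTR GFP-positive and 3.62 CPM in CTR GFP-negative cells.

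**Figure D1:**
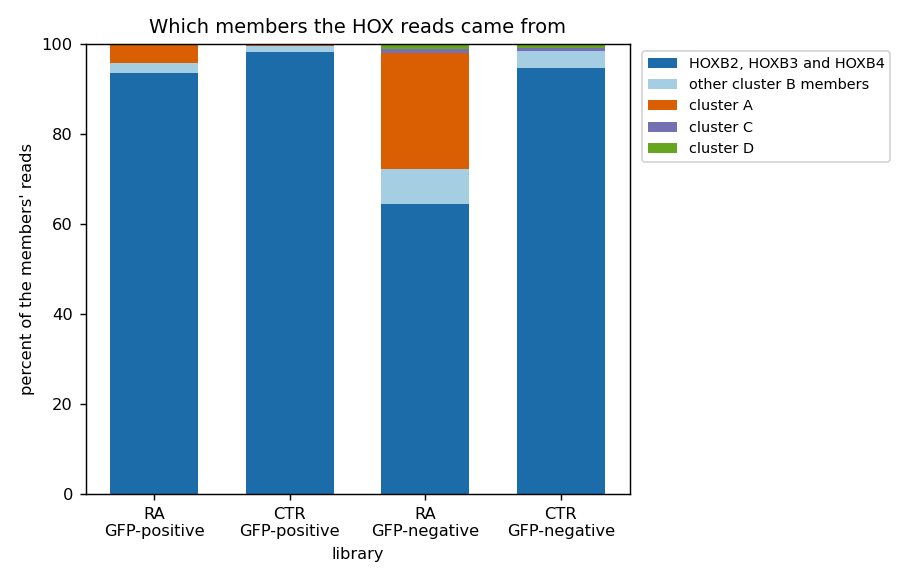
Percent of the reads of all 38 members (y axis) that came from HOXB2 to HOXB4, from the other cluster B members and from clusters A, C and D, in each of the 4 libraries (x axis). Cluster A takes 25.9% of the bar of RA GFP-negative cells and at most 3.85% elsewhere.

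The number of members detected was highest in RA GFP-negative cells, with 27 of 38, followed by 13 in RA GFP-positive, 7 in CTR GFP-positive and 4 in CTR GFP-negative cells. The numbers moved with depth. When all libraries were thinned to the total of the smallest, the median number detected over 20 draws was 13 (10 to 15) in RA GFP-negative and 5.5 (4 to 7) in RA GFP-positive cells, and 4 in each control library (3 to 4 in the GFP-positive one). Without thinning, 24550 and 23781 of all 60234 genes were detected in the GFP-negative and GFP-positive RA libraries. The controls had 18102 and 24048 in that order. At least 4 reads were found only in RA GFP-negative cells for 15 members, among them HOXA4, HOXA5 and HOXD8, with CTR GFP-negative cells at a higher limit. The matching number over all genes was not counted. HOXC5 and HOXC12 had no read in any library, and 24 members had none in either control library.

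Cluster A differed widely between the libraries. Cluster A summed to 1379 reads in RA GFP-negative, 140 in RA GFP-positive, 11 in CTR GFP-positive and 0 in CTR GFP-negative cells. Cluster B summed to 3835, 3480, 3442 and 316 reads in the same order, or 149, 130.1, 120.1 and 67.3 CPM. Clusters C and D stayed low, with at most 38 reads for cluster C and 65 for cluster D, both in RA GFP-negative cells.

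**Figure D2:**
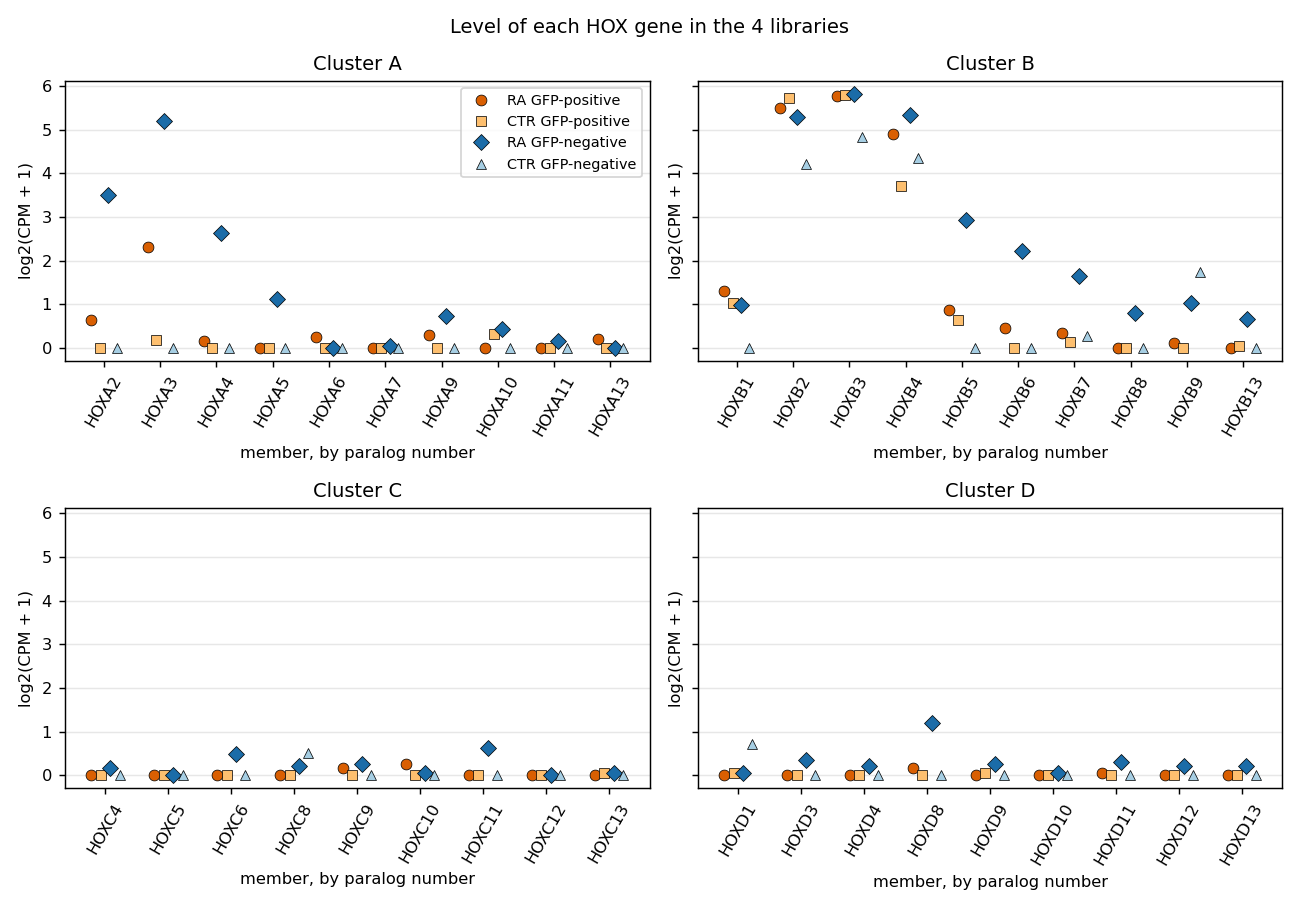
log2(CPM + 1) of each member (y axis) by paralog number (x axis) in each cluster, with 1 symbol per library. The filled diamonds of RA GFP-negative cells stand above the other libraries from HOXA2 to HOXA5 and from HOXB5 to HOXB7, whereas HOXB2 to HOXB4 are high in all 4 libraries.

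In GFP-negative cells, low and middle members of clusters A and B were higher with RA. A member counts as at least 2-fold apart here when log2(CPM + 1) differed by at least 1 and either library reached 1 CPM. Of the 12 members that reached it, 9 were at least 2-fold higher with RA (HOXA2, HOXA3, HOXA4, HOXA5, HOXB2, HOXB5, HOXB6, HOXB7 and HOXD8) and none was lower. Among all 18642 genes that reached 1 CPM in either library, 8.69% were at least 2-fold higher and 7.61% at least 2-fold lower. All of these 9 members but HOXB2 reached 1 CPM only in the RA library, so the filter admitted them through the library in which they were high, and the count is a description. Over the 27 members with 4 or more reads in either library the median difference was 0.73, against 0.16 over 25190 genes. The median depends on members near 0 reads, with 0.18 to 1.36 under pseudocounts of 5 and 0.25 CPM and 0.052 with members without reads set at the limit, and at a minimum of 10 CPM 3 members were at least 2-fold apart.

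HOXA3 (chr7:27145803-27192202, GRCh37), needed for the organs of the third pharyngeal arch, had 919 reads in RA GFP-negative cells, 107 in RA GFP-positive, 4 in CTR GFP-positive and 0 in CTR GFP-negative cells. HOXA2, which sets the identity of the second pharyngeal arch, had 266 reads in RA GFP-negative cells, 15 in RA GFP-positive cells and 0 in both controls. HOXA4 had 134 reads in RA GFP-negative cells, 3 in RA GFP-positive cells and 0 in both controls. All 3 were therefore highest in RA GFP-negative cells and at 4 reads or fewer in the controls. HOXA2 and HOXA4 in RA GFP-positive cells, at 0.561 and 0.112 CPM, lay under the limit of CTR GFP-negative cells, so that these libraries cannot be ordered for them. In GFP-negative cells HOXA4 was at least 8.17-fold higher with RA, against the limit of 3 reads. Thinned to the total of the CTR library, RA GFP-negative cells gave 135 to 170 reads for HOXA3, 31 to 54 for HOXA2 and 12 to 27 for HOXA4 over the draws.

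The middle members of cluster B followed at lower levels. HOXB5, known from enteric neural crest and gut mesenchyme, had 171 reads in RA GFP-negative cells, 22 in RA GFP-positive, 16 in CTR GFP-positive and 0 in CTR GFP-negative cells. HOXB6, a trunk member, had 94, 10, 0 and 0 reads in that order, and HOXB7, its neighbour, had 55, 7, 3 and 1. Against the limit of 3 reads, HOXB5 was at least 10.4-fold and HOXB6 at least 5.73-fold higher with RA in GFP-negative cells. The HOXB7 ratio was 10.1 (1.73 to 405), a wide interval that rests on 1 read in the control.

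HOXA5 and HOXD8 came near the limit. HOXA5, which patterns lung and thorax, had 30 reads in RA GFP-negative cells and none elsewhere, which makes it at least 1.83-fold higher than in the control, a bound under the 2-fold that its difference of log2(CPM + 1) reached. HOXD8, the only member of cluster D that reached 1 CPM, had 33 reads in RA GFP-negative cells, 3 in RA GFP-positive cells and 0 in both controls, at least 2.01-fold higher with RA. Their positions above the control are bounded closely by the depth of the CTR library.

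HOXB2, HOXB3 and HOXB4 were also higher with RA in GFP-negative cells, by similar ratios. HOXB2 stood at 38.3 CPM with RA and 17.5 CPM in CTR, a ratio of 2.19 (1.75 to 2.78). HOXB3 stood at 55.8 and 27.7 CPM, a ratio of 2.01 (1.68 to 2.43), and HOXB4 at 39.6 and 19.6 CPM, a ratio of 2.02 (1.63 to 2.53). The 3 intervals overlap, and the log2 differences of 1.09, 0.98 and 0.98 lie on both sides of the threshold, so that only HOXB2 entered the count. HOXB1, which patterns the hindbrain and early cardiac progenitors, had 25 reads with RA and 0 in CTR, at least 1.52-fold higher. HOXB9, a thoracic member, went the other way, with 27 reads (1.05 CPM) against 11 (2.34 CPM), a ratio of 0.449 (0.216 to 1.00).

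In GFP-positive cells fewer members differed, and only HOXB4 and HOXA3 passed both the 1 CPM filter and the 2-fold threshold. Of 5 members that reached 1 CPM, these 2 were at least 2-fold higher with RA and none was lower. HOXA3 reached 1 CPM only in the RA library. Among all 17465 genes that reached 1 CPM in either GFP-positive library, 5.09% were at least 2-fold higher and 2.12% lower. The median over the 14 members with 4 or more reads was 0.25, against 0.00 over 26551 genes, and ranged from 0.058 with a pseudocount of 5 CPM to 0.84 with members without reads set at the limit. With a pseudocount of 5 CPM no member passed the threshold, and HOXB4 stood at 0.98.

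HOXB4 (chr17:46652869-46655712, GRCh37), known for the growth of blood stem cells, had 774 reads (28.9 CPM) with RA and 350 (12.2 CPM) in CTR GFP-positive cells, a ratio of 2.37 (2.09 to 2.70). HOXA3 had 107 reads (4.00 CPM) and 4 reads (0.14 CPM), a ratio of 28.7 (10.9 to 107). HOXA2, under 1 CPM in both libraries with 15 and 0 reads, was at least 5.36-fold higher, and HOXB6, with 10 and 0 reads, at least 3.57-fold higher. HOXA9, with 6 and 0 reads, was at least 2.14-fold higher against the limit of 3 reads. HOXA10 went the other way, with 0 and 7 reads, at least 2.18-fold lower with RA. The counting intervals reached down to 1.26-fold higher for HOXA9 and 1.35-fold lower for HOXA10. HOXB3 differed little, at 53.8 and 54.4 CPM with a ratio of 0.989 (0.920 to 1.06). HOXB2 was slightly lower with RA, at 44.4 and 51.8 CPM with a ratio of 0.858 (0.794 to 0.926). HOXB1 had 39 and 30 reads, a ratio of 1.39 (0.843 to 2.32), so that a difference of this size was not detectable at this depth.

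**Figure D3:**
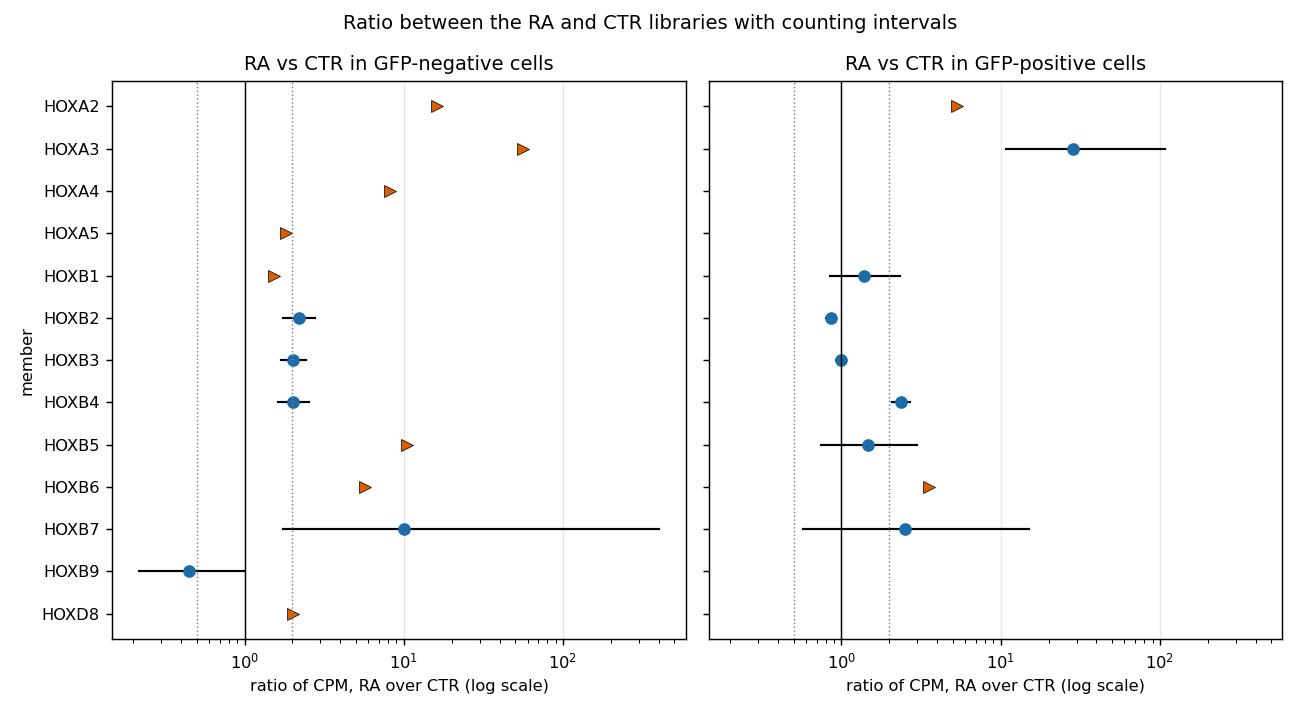
Ratio of CPM in RA over CTR libraries (x axis, log scale) for the 13 members with at least 1 CPM in any library (y axis), in GFP-negative cells (left) and GFP-positive cells (right). Points are ratios with 95% counting intervals, triangles mark the bound against the limit of 3 reads where the control had no reads, members with 3 reads or fewer against none have no symbol, the solid line marks 1 and dotted lines mark 2-fold, and the HOXB4 point is to the right of 2 in both panels.

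Between the fractions, with RA, HOXA2 to HOXA5, HOXB5, HOXB6, HOXB7 and HOXD8 were lower in GFP-positive cells. Of 13 members at 1 CPM or more, none was at least 2-fold higher in GFP-positive cells and 8 were at least 2-fold lower (HOXA2, HOXA3, HOXA4, HOXA5, HOXB5, HOXB6, HOXB7 and HOXD8). Over all 18111 genes tested in this way 10.2% were higher and 14.1% lower. All of the 8 but HOXA3 reached 1 CPM only in the GFP-negative library, so that this count too is a description, and it was 3 with a pseudocount of 5 CPM and 2 at a minimum of 10 CPM. HOXB9, with 2 reads against 27, was 14.1-fold (3.54 to 122) lower in CPM but within 2-fold on the log2(CPM + 1) scale, which understates the change of low genes. HOXA3 was 8.95-fold (7.32 to 11.0) and HOXA2 18.5-fold (11.0 to 33.5) lower in GFP-positive cells. By contrast, HOXB3 had a GFP-positive over GFP-negative ratio of 0.965 (0.896 to 1.04), HOXB2 of 1.16 (1.06 to 1.26) and HOXB4 of 0.732 (0.665 to 0.804). The median over 30 members was -0.44, against -0.01 over 27419 genes, and ranged from -0.10 with a pseudocount of 5 CPM to -1.60 with members without reads set at the limit. These libraries also enter the comparisons of RA with CTR.

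In the control 3 of the 5 members at 1 CPM or more were at least 2-fold apart between the fractions, against 14.1% of 18786 genes higher and 17.0% lower in GFP-positive cells. HOXB1 and HOXB9 reached 1 CPM only in the library in which they were high, and 1 member, HOXB2, remained at a minimum of 10 CPM. HOXB2 was higher in GFP-positive cells, with a ratio of 2.96 (2.37 to 3.75), and HOXB1, with 30 reads against 0, at least 1.64-fold higher, a bound under 2-fold. HOXB9, with 0 reads against 11, was at least 22.4-fold lower in GFP-positive cells. HOXB4 leaned toward GFP-negative cells, with 12.2 and 19.6 CPM and a ratio of 0.623 (0.494 to 0.793), and HOXB3 toward GFP-positive cells, with a ratio of 1.97 (1.64 to 2.37).

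Levels of different members were compared per kb of merged exons. In CTR GFP-positive cells the order was HOXB2 (21.1 CPM per kb), HOXB3 (7.33) and HOXB4 (6.10), with intervals that do not overlap. In RA GFP-positive cells HOXB2 (18.1) was followed by HOXB4 (14.5) and HOXB3 (7.25), so that HOXB4 and HOXB3 stood in the other order. In RA GFP-negative cells HOXB4 (19.8) and HOXB2 (15.6) led, followed by HOXA3 (8.31, interval 7.78 to 8.87) and HOXB3 (7.51, interval 7.13 to 7.91), whose intervals overlap, and then HOXA2 (4.44), HOXB5 (3.58) and HOXA4 (3.02). In CTR GFP-negative cells HOXB4 (9.79) and HOXB2 (7.11) had overlapping intervals and HOXB3 (3.73) came next. The order is uncertain where exons are shared with other genes, since reads there were counted without strand. HOXA4 shares 47.8% of its exon bases, HOXA3 19.9% and HOXB3 11.7%. Per base of unshared exon they stood at 5.79, 10.4 and 8.51 CPM per kb in RA GFP-negative cells.

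**Figure D4:**
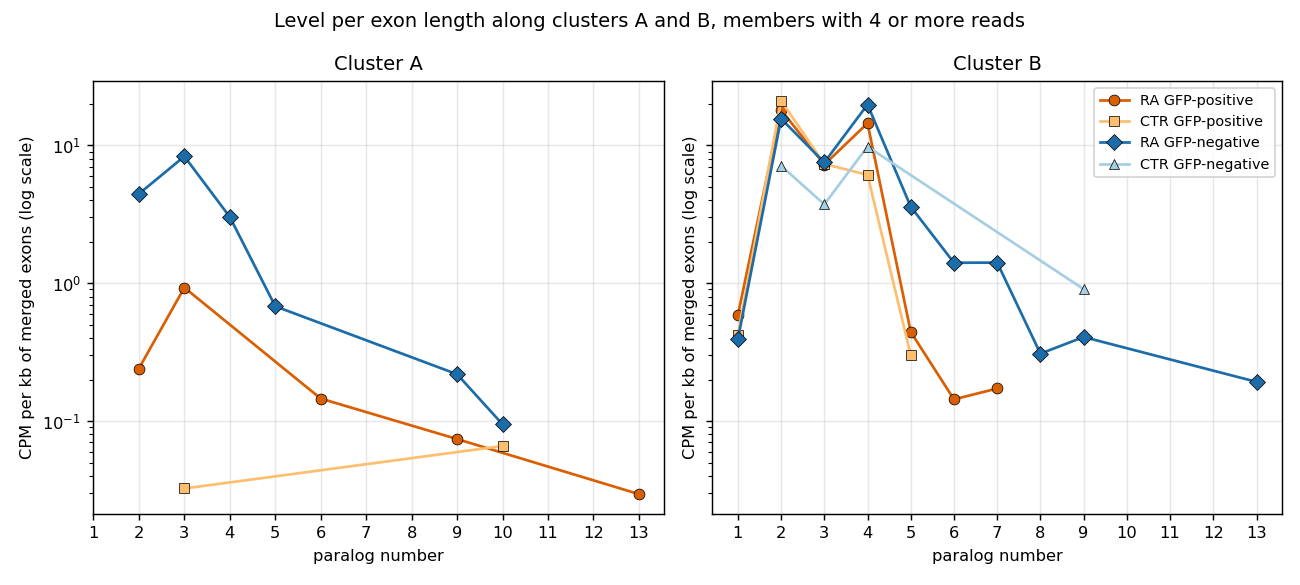
CPM per kb of merged exons (y axis, log scale) against paralog number (x axis) for the members of clusters A and B with 4 or more reads, with 1 line per library. In RA GFP-negative cells the line of cluster A falls from 8.31 at HOXA3 to 0.68 at HOXA5, and that of cluster B from 19.8 at HOXB4 to 3.58 at HOXB5.

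Reads of cluster B in every library, and of cluster A in the RA libraries, were concentrated at the low-numbered end. The shares over all members rest mostly on HOXB2 to HOXB4. In CTR GFP-positive cells HOXA10 held 7 of the 11 reads of cluster A, and CTR GFP-negative cells had no read of that cluster. Reads of clusters C and D were not concentrated at the low-numbered end. In RA GFP-negative cells HOXD8 held 33 of the 65 reads of cluster D, and HOXC11 and HOXC6 held 14 and 10 of the 38 reads of cluster C. Paralogs 1 to 4 gave 98.1% of the members' reads in RA GFP-positive cells, 99.2% in CTR GFP-positive, 90.1% in RA GFP-negative and 95.6% in CTR GFP-negative cells. Paralogs 5 to 8 took 7.84% (7.13 to 8.60) in RA GFP-negative cells and 1.29% or less in the others, and paralogs 9 to 13 took 2.11% (1.74 to 2.53) there and 3.43% (1.72 to 6.05) in CTR GFP-negative cells, where all of these reads were HOXB9's. Across the 20 members of clusters A and B, Spearman's rho of paralog number and log2(CPM + 1) was -0.74 in both RA libraries, -0.47 in CTR GFP-positive and -0.27 in CTR GFP-negative cells. Over all 38 members, most of them at or near 0 reads, it was -0.43 and -0.47 in the GFP-positive and GFP-negative RA libraries and -0.33 and -0.34 in the controls. This is a description across genes that share a library, a cluster and in part their exons.

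The 25 members under 1 CPM in every library were mostly high-numbered or belonged to clusters C and D. Their highest count was 19 reads, for HOXB8 in RA GFP-negative cells, followed by HOXA9 with 17, HOXB13 with 15 and HOXC11 with 14 in the same library. HOXB13, a marker of the posterior end, had 1 further read, in CTR GFP-positive cells. HOXA13, HOXA6 and HOXC10 were detected only in RA GFP-positive cells, with 4, 5 and 5 reads. HOXA10 had 9 reads in RA GFP-negative and 7 in CTR GFP-positive cells and none in the other libraries.

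Long non-coding RNAs of the clusters are transcripts that lie between HOX genes or overlap them, most of them on the opposite strand. Of 18 listed, 4 reached 1 CPM in the GFP-negative libraries and all 4 were at least 2-fold higher with RA, against 8.69% of all genes. Of these, HOXA-AS2, HOXB-AS1 and HOXB-AS2 reached 1 CPM only in the RA library, through which the filter admitted them. In GFP-positive cells 2 reached it, of which 1 was higher and none lower, against 5.09% and 2.12% of all genes. HOTAIRM1, from the low-numbered end of cluster A, had 192 reads in RA GFP-positive, 0 in CTR GFP-positive, 273 in RA GFP-negative and 9 in CTR GFP-negative cells. It was at least 68.6-fold higher with RA in GFP-positive cells, and its ratio in GFP-negative cells was 5.55 (2.88 to 12.3). Its GFP-positive over GFP-negative ratio with RA was 0.675 (0.558 to 0.815), against 0.112 (0.0906 to 0.137) for HOXA3. HOXA-AS2, which lies within the span of HOXA3 and shares 13.05% of its exon bases with other genes, had 26, 0, 151 and 0 reads. HOXB-AS1, which overlaps the spans of HOXB2 and HOXB3, had 239, 341, 71 and 0. In the control HOXB-AS1 was at least 18.6-fold higher in the GFP-positive library, and it shares 29.6% of its exon bases with other genes.

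The genes next to the clusters were followed as well. Of the 24 genes flanking the clusters, 3 on each side, 20 reached 1 CPM in the GFP-negative libraries, and 1 was at least 2-fold higher with RA and none lower, against 8.69% and 7.61% of all genes. This was SKAP2, an adaptor protein next to the low-numbered end of cluster A, with 538 reads (21.0 CPM) against 21 (4.47 CPM), a ratio of 4.69 (3.04 to 7.64). In GFP-positive cells SKAP2 had 386 and 256 reads, and none of the 20 flanking genes at 1 CPM passed the 2-fold threshold. EVX2, a homeobox gene at the high-numbered end of cluster D, had 6 reads in RA and 26 in CTR GFP-positive cells, with none in either GFP-negative library.

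The partners and regulators of HOX genes were followed in lists. Of 9 HOX cofactors of the TALE class, none was 2-fold apart in GFP-negative cells, and in GFP-positive cells 1 was higher with RA: MEIS3, at 98.4 and 39.5 CPM, a ratio of 2.49 (2.32 to 2.67). None of 17 Polycomb and H3K27 demethylase genes, which keep HOX clusters silent or open them, was 2-fold apart between RA and CTR in either fraction. Over all genes 8.69% were higher and 7.61% lower in the GFP-negative libraries and 5.09% and 2.12% in the GFP-positive ones. These proteins were measured only as RNA.

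Of 9 known upstream activators, 7 reached 1 CPM in the GFP-negative libraries, of which 2 were at least 2-fold higher with RA and none lower, against 8.69% and 7.61% of all genes. CDX2, a factor of the hindgut and the embryonic tail, had 445 reads in RA GFP-negative cells against 7 in CTR, a ratio of 11.6 (5.60 to 29.1), and CDX1 had 154 against 2, a ratio of 14.1 (3.83 to 117). In GFP-positive cells EGR2, known from the hindbrain, was higher, with a ratio of 3.64 (3.29 to 4.04). CDX2 and CDX1 had 8 and 15 reads in RA GFP-positive cells and 0 in the control. The different genes in the fractions are given side by side, and the difference between fractions was not tested.

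Of 17 genes of the RA pathway, 5 were at least 2-fold higher and 2 lower with RA in GFP-negative cells, and 5 were higher and none lower among the 14 that reached 1 CPM in GFP-positive cells. Over all genes 8.69% were higher and 7.61% lower in GFP-negative cells, and 5.09% and 2.12% in GFP-positive cells. RARB, a receptor and known RA target, stood at 10.9 and 1.92 CPM in GFP-negative cells, a ratio of 5.69 (2.96 to 12.6). DHRS3, a retinaldehyde reductase, stood at 17.2 and 1.70 CPM, a ratio of 10.1 (5.07 to 23.5). ALDH1A3, an RA-producing enzyme, was lower, at 4.52 and 30.9 CPM, as was CRABP1, which like CRABP2 binds RA in the cell, at 33.0 and 76.0 CPM. CRABP1 went the other way in GFP-positive cells, at 11.7 and 4.01 CPM. In GFP-positive cells the RA-producing enzymes ALDH1A1 and ALDH1A2 were higher, with ratios of 9.15 (7.14 to 11.9) and 4.15 (3.63 to 4.76), and CRABP2, which carries RA in the cell, was higher in both fractions, with ratios of 3.09 and 2.38.

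Lists of cell type markers also differed between the RA and CTR libraries, in both directions. Among all genes at 1 CPM or more, 8.69% were higher and 7.61% lower in GFP-negative cells, and 5.09% and 2.12% in GFP-positive cells. The remaining marker lists are given in the last section. In GFP-negative cells the 13 gut and liver endoderm markers summed to 1087 CPM with RA and 249 CPM in CTR, with 10 higher and 1 lower, and FOXA2 had no reads in CTR. The 10 stromal markers summed to 62882 and 32574 CPM there, with 6 higher and none lower, and the 11 forebrain and eye markers to 90.3 and 713 CPM, with none higher and 10 lower. In GFP-positive cells all 10 stromal markers were higher with RA, with sums of 15468 and 4043 CPM. The endoderm markers summed to 113 and 63.4 CPM there, with 5 higher and 1 lower among the 10 that reached 1 CPM. With RA the GFP-positive sum was 0.246 of the GFP-negative one for stroma and 0.104 for endoderm. The 13 cardiomyocyte markers summed to 565 and 1038 CPM in RA and CTR GFP-negative cells, with none higher and 4 lower, and to 18550.0 and 22032 CPM in GFP-positive cells, with 1 higher and 1 lower. The part of these cells in the HOX values was not tested. In sorted bulk RNA, fewer cells of a type and less RNA per cell cannot be told apart.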

How the data were processed

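RNA was sequenced from 4 sorted populations of the NKX2.5:GFP line, 1 library each. The authors aligned the reads with GSNAP to a custom hg19 genome, kept uniquely aligned reads, sorted them with SAMtools 0.1.18 and counted reads per Ensembl gene with HTSeq 0.6.1p1 without strand, so reads in exons that genes share are uncertain. The deposited file holds these counts without scaling. The Ensembl release is not given in the sources used here. All mapped columns were used.

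CPM were computed with TMM factors from edgeR 4.0.16 in R 4.3.3 over all 60234 rows, and compared as log2(CPM + 1). Ratios carry Clopper-Pearson and CPM exact Poisson intervals. Exons and positions came from a GENCODE annotation on GRCh37, and 55538 rows had a symbol. All 38 members were accounted for: those with 1 CPM in any library by their values, the others by counts and range. Of the other lists, the genes at least 2-fold apart were named, with neighbouring values. The members and lists were chosen with earlier results of these data known. Of the rows that matched the rule, 1 is not reported here, and PECAM1 and PCGF2 were not analysed here. Alternatives were 5 other scalings (library size, library size without mitochondrial and the 10 most abundant genes, DESeq2 1.42.0 size factors, upper quartile, and TMM on the compared libraries alone), pseudocounts, filters, detection limits and thinning in 20 draws. The procedure was tested on simulated data.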

Additional observations from a re-analysis of the deposited data

Results flagged for a closer look

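HOXB2 was higher with RA in one sorted fraction and lower in the other. In GFP-negative cells its log2 difference between the RA and CTR libraries was 1.09 and in the GFP-positive library pair it was -0.22. The counting intervals of the ratios excluded 1 on opposite sides, but each direction rests on 1 library per condition, and that contrast was not tested. After thinning of all libraries to the smallest, the GFP-positive difference was -0.22 with a counting interval that held 1.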

How the results depend on the processing

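No paired analysis was possible because each condition had 1 library, and leaving out a library would remove a condition. Under the 5 other scalings the counts of members at least 2-fold apart and the medians kept their direction and stayed within 1.5 times: 8 to 9 members in GFP-negative cells, 2 in GFP-positive cells, 8 to 9 between the fractions with RA and 3 in the control. The median differences follow in the order RA against CTR in GFP-negative cells, the same in GFP-positive cells, GFP-positive against GFP-negative with RA, and the same in the control. With a pseudocount of 0.25 CPM they were 1.36, 0.74, -1.004 and 0.98, and with 5 CPM 0.18, 0.058, -0.10 and 0.11. With thinned libraries they were 1.26, 0.45, -1.24 and 0.86. Over members with at least 1 CPM they were 1.28, -1.12 and 0.95 for the comparisons other than RA against CTR in GFP-positive cells. With no pseudocount and members without reads at the floor of 3 reads (no difference where the bound was uninformative), an alternative chosen after seeing the data, they were 0.052, 0.84, -1.60 and 0.00. So the size of each median rests on how members near 0 reads are treated.

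A pseudocount of 5 CPM left 4, 0, 3 and 1 members at least 2-fold apart in that order, and a filter of at least 10 CPM left 3, 1, 2 and 1. The 13 members detected in RA GFP-positive cells became 8 at 10 reads, 5 at 1 CPM and 5.5 when thinned, and the 27 in RA GFP-negative cells became 12 at 1 CPM and 13 when thinned. In CTR GFP-positive cells 7 became 12 at 1 read, 4 at 1 CPM and 4 when thinned, and in CTR GFP-negative cells 4 became 7 at 1 read. The share of reads from paralogs 1 to 4 per kb of exon was 97.1% and 85.9% in the RA GFP-positive and GFP-negative libraries and 98.6% in CTR GFP-positive cells. Over members with under 10% shared exon bases it was 86.6% in RA GFP-negative and 92.6% in CTR GFP-negative cells. Of the alternatives for single members, 355 left the interval of the ratio excluding 1 on the same side or still holding 1. In 9 the interval came to hold 1, all with thinned libraries. In 4, all for HOXB9 in GFP-negative cells under other scalings, it came to exclude 1. The depth of the CTR GFP-negative library limits every zero in it.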

Other observations

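The other marker lists gave these sums. In GFP-negative cells the 7 neural crest markers summed to 140 CPM with RA and 50.7 CPM in CTR, with 4 higher and 1 lower, and the 6 epicardial markers to 435 and 757 CPM, with none higher and 1 lower. The 5 endothelial markers summed to 262 and 280 CPM there, with 1 higher and none lower. The 10 markers of neurons and neural progenitors summed to 110 and 182 CPM, with 1 higher and 5 lower. The 10 hindbrain and spinal cord markers, a list that also holds EGR2, summed to 134 CPM with RA and 29.5 CPM in CTR GFP-positive cells, with 3 higher, and to 82.7 and 75.8 CPM in GFP-negative cells, with 1 higher and 1 lower. PHOX2A, a factor of autonomic and cranial neurons, was among these, at 62.5 and 9.04 CPM in GFP-positive cells, a ratio of 6.91 (6.06 to 7.91). LBX1 had no reads in any library. In GFP-negative cells MNX1, a motor neuron and pancreas factor, had 87 reads with RA and 0 in CTR, at least 5.31-fold higher, and OLIG2, a factor of motor neuron progenitors, had 0 and 6 reads, at least 10.9-fold lower.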
